A study of Zea mays with 9 samples.

Results

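Whole kernels of the maize inbred B73 collected 6 days after pollination (DAP) were compared with whole kernels collected at 4 DAP. The comparison uses 2 of the 9 RNA sequencing libraries of a time course from 0 to 12 DAP, chosen by their stated age and tissue. All plants were B73, the genotype of the maize reference genome, raised in a greenhouse and self-pollinated, and the labels name no mutant, transgene or treatment in any group. Kernels at 0 DAP, which were unpollinated, and at 2, 3, 4 and 6 DAP were pinched off whole, so they carry the maternal pericarp and nucellus and, once fertilised, the embryo and the endosperm. At 8, 10 and 12 DAP the endosperm alone was dissected, and levels at those ages serve only to place the 4 and 6 DAP values. Each age was sequenced from 1 of 3 collected biological replicates, and the pair of libraries at 0 DAP (a and b) are technical replicates. The 4 and 6 DAP libraries each stand for 1 biological sample, so there is no p-value and no biological error for any difference between them.

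The maize endosperm starts as a multinucleate cell, becomes divided by walls, and then differentiates into domains. Transfer cells form at the base, next to the maternal tissue, and take up sugars and amino acids. The embryo-surrounding region lines the cavity around the embryo, an outer layer becomes the aleurone, and the starchy endosperm in the centre later fills with starch and with prolamin storage proteins called zeins. The interval from 4 to 6 DAP runs from the newly cellular to the differentiating endosperm, within a kernel that is still mostly maternal tissue.

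The 4 DAP library held 19754760 counted reads and the 6 DAP library 40145710, within a range of 17716275 to 40145710 over the series. Levels are given as v, the CPM (read count scaled to a common depth) after TMM over the 9 libraries, and since model lengths were not used a level is compared between libraries and never between genes. A v of 10 rested on 296 reads at 4 DAP and 547 reads at 6 DAP, and 3 reads corresponded to v = 0.101 and 0.0549. A gene model counted as higher or lower when v + 1 differed at least 4-fold, the library with more reached a v of 10, and 1 lay outside the exact 95% interval of the ratio. Intervals cover counting error only. Gene lists were gathered by gene symbol from a RefSeq name table. Reads of near-identical copies, as in the zein family, may be split between models or counted more than once, so values of single copies are uncertain. Folds are plain ratios of v, whereas the log2 ratios given for lists are of v + 1 and understate the change of low genes.

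Both libraries had features that touch the results. The libraries from 0 to 4 DAP held zein reads at a nearly constant small share, and the 6 DAP library almost none: the 29 models of the zein list took 0.204% of reads at 4 DAP and 0.000351% at 6 DAP. The 6 DAP library also had more models of its own than the other kernel libraries had. At 6 DAP 71 models lay 4-fold or more above all 8 other libraries and 43 lay 4-fold or more below all 8, each of which held v of at least 10. The corresponding numbers were 9 and 1 at 4 DAP, 4 and 2 at 3 DAP, and 7 and 2 at 2 DAP. With 1 library per age, what belongs to the age and what belongs to the library cannot be told apart.

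At 6 DAP 354 models were higher than at 4 DAP and 223 were lower, of 15587 models that reached v = 10 in either library. These are 2.27% and 1.43% of the models tested, or 3.7% in all. The same rule called 57 models (0.396%) and 20 models (0.139%) between the technical replicates, 0.535% in all of 14382 tested. Of the gene lists, those of the endosperm transfer layer and of the embryo-surrounding region had the highest median log2 ratios, and the named genes that were lower were mostly zeins. Of the 354 higher models 12 had no read at 4 DAP, 103 lay under v = 1 there and 52 reached v = 100 at 6 DAP. Of the 223 lower models 29 had no read at 6 DAP and 82 lay under v = 1 there. Most of these models have no usable gene symbol: 44 higher and 24 lower ones could be named.

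**Figure D1:**
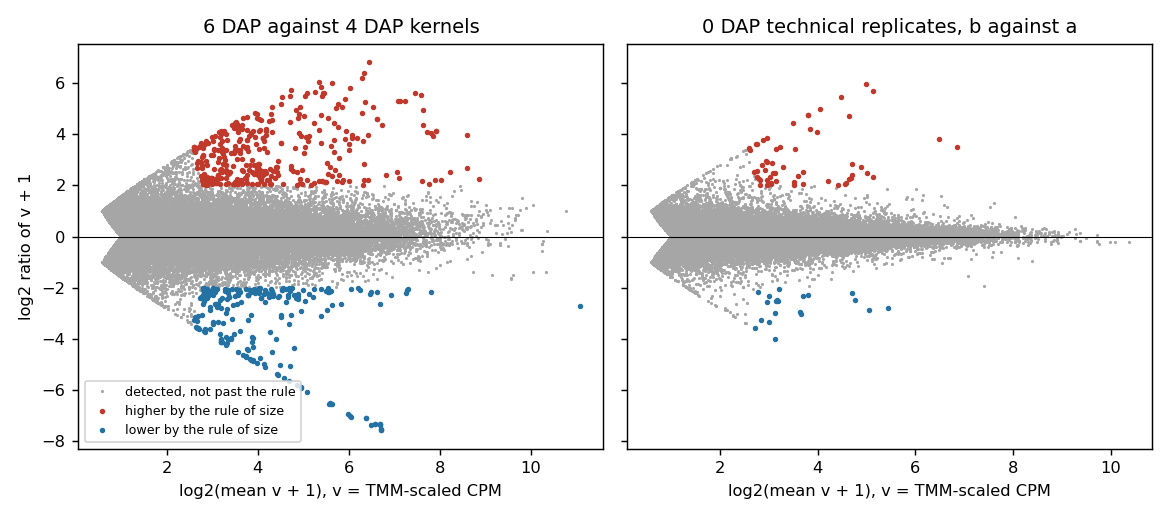
Each point is a gene model detected at v = 1 or more in either library of a pair, with its mean level on the x axis, log2(mean v + 1), and the log2 ratio of v + 1 on the y axis. The left panel sets 6 DAP against 4 DAP, with 354 higher models in red and 223 lower ones in blue, and the right panel sets technical replicate b against a, with 57 and 20.

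The spread of the 4 to 6 DAP ratios was wider than that of the technical pair at every level. The SD of the log2 ratio was 0.84 between the ages for models with a mean v of 1 to 10, against 0.56 between the technical replicates. It was 0.84 against 0.37 for models of 10 to 100, and 0.96 against 0.26 for those above 100. Of the models with a mean v above 100, 37 of 1141 (3.24%) lay past the technical limit, the absolute log2 ratio that 0.1% of models at that level exceeded between the technical replicates, 24 higher and 13 lower at 6 DAP. Of the called models 184 higher and 96 lower ones also lay past that limit at their level, and 7 higher and 8 lower ones were also called between the technical replicates. All 24 named lower models lay past the limit, whereas of the 44 named higher ones 25 did and 19 passed the rule of size but lay within the limit. Among these 19 were mn1, wx1, fie1, lox6, psk1, AUX3, asn3, PR10, rps12, bZIP84, EREB202 and AGA3b. The limit steps from 2.99 to 1.99 at a mean v of 100. Above 100 it comes from 962 technical models, of which only the most extreme few set it, so it is loosely fixed there. The lower glu1, glu2 and ERECTA, at log2 ratios of -2.70, -2.30 and -2.63, were set against 1.99. So were the higher AGA1 and thi1-2, at 2.05 and 2.41. For mn1 and AUX3, at 2.47 and 2.41, the limit was 2.99, so which genes pass depends in part on this step. Over all 36405 models detected at v = 1 or more the median log2 ratio was 0.10, and 10.3% were at least 2-fold higher and 6.83% at least 2-fold lower on v + 1. In the technical pair 5.05% of models differed 2-fold in either direction. The gene lists hold only models with a usable symbol, of which 1751 were detected. Over these 1751 the median log2 ratio was 0.22, and 1110 lay above their 4 DAP level. Of them 13.5% were at least 2-fold higher and 4.85% at least 2-fold lower. By the rule of size 44 of the 1751 were higher and 24 lower.

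Genes of the basal transfer layer had the highest median log2 ratio of the lists examined. These encode mainly small secreted cysteine-rich proteins made by the transfer cells at the base of the endosperm. Of 14 members, all detected, 12 were higher at 6 DAP by the rule of size and none was lower. The median log2 ratio of the list was 4.50, beside 0.10 over all detected models. The summed v of the list was 49.1 at 4 DAP, 1224 at 6 DAP and 6236 in the dissected endosperm of 8 DAP. In whole kernels, more cells of a type and more RNA per cell cannot be told apart.

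The gene betl2, a member of the basal endosperm transfer layer family, had v of 2.48 and 4.08 in the 0 DAP replicates, 2.14 at 2 DAP, 7.01 at 3 DAP, 5.97 at 4 DAP and 341 at 6 DAP. It went on to 1714 at 8 DAP and stood at 984 and 293 at 10 and 12 DAP. Every library up to 4 DAP was therefore low, 6 DAP was intermediate, and the dissected endosperm of 8 and 10 DAP was higher still. Between 4 and 6 DAP betl2 was 57.1-fold higher (95% interval 49.2 to 66.5). BETL1, the founding member of the family, moved from 0.708 to 25.1, a 35.5-fold difference (23.1 to 57.5), and was at 140.4 at 8 DAP. The members betl4 and betl10 were 40.1-fold (26.4 to 64.1) and 47.4-fold higher (37.0 to 61.8). The betl3 gene had 2 reads at 4 DAP and 1164 at 6 DAP, v of 0.0675 and 21.3, so its fold of 316 is loosely fixed, with an interval of 87.2 to 2609. Unlike betl2, betl-9 had a like v at 8 and 12 DAP, with 4.28 at 4 DAP, 102 at 6 DAP, 1063 at 8 DAP and 1057 at 12 DAP. That likeness rests on the TMM factors of these libraries, 1.07 at 8 DAP and 0.156 at 12 DAP.

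Genes of basal layer antifungal proteins, which encode small peptides secreted towards the maternal side, had the 3 highest folds of the list after betl3. The v of bap-3a was 0.49, 0.506, 0.494, 1.15 and 1.08 in the libraries from 0 to 4 DAP, then 154 at 6 DAP, 270.3 at 8 DAP, 45.2 at 10 DAP and 10.2 at 12 DAP. It was 142-fold higher at 6 than at 4 DAP (101 to 208), and had passed its peak by 10 DAP. The 3 other members of this family differed by 53.9-fold (bap-3b, 41.6 to 71.0), 64.1-fold (bap-1a, 49.1 to 85.4) and 101-fold (bap1-b, 67.8 to 158). MEG1 encodes a peptide of the transfer cells and is expressed from the maternal allele alone early in development. Its v was 2.33 at 4 DAP, 71.0 at 6 DAP and 515 at 8 DAP, and it was 30.5-fold higher at 6 than at 4 DAP (24.1 to 39.3). The two-component response regulator gene tcrr-1, which is active in transfer cells, went from 0.607 to 37.0, 60.9-fold (38.4 to 103).

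The members ebe1 and ebe2, which are active in the embryo sac and later at the base of the endosperm, did not pass the rule. The v of ebe1 was 16.0 at 4 DAP and 15 at 6 DAP, a ratio of 0.938 (0.836 to 1.05). That of ebe2 was 10.7 and 23, a ratio of 2.16 (1.91 to 2.45). Both already stood at 8.75 to 24.9 in replicate a of the unpollinated kernels, where the other 12 members lay between 0.035 and 2.59.

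**Figure D2:**
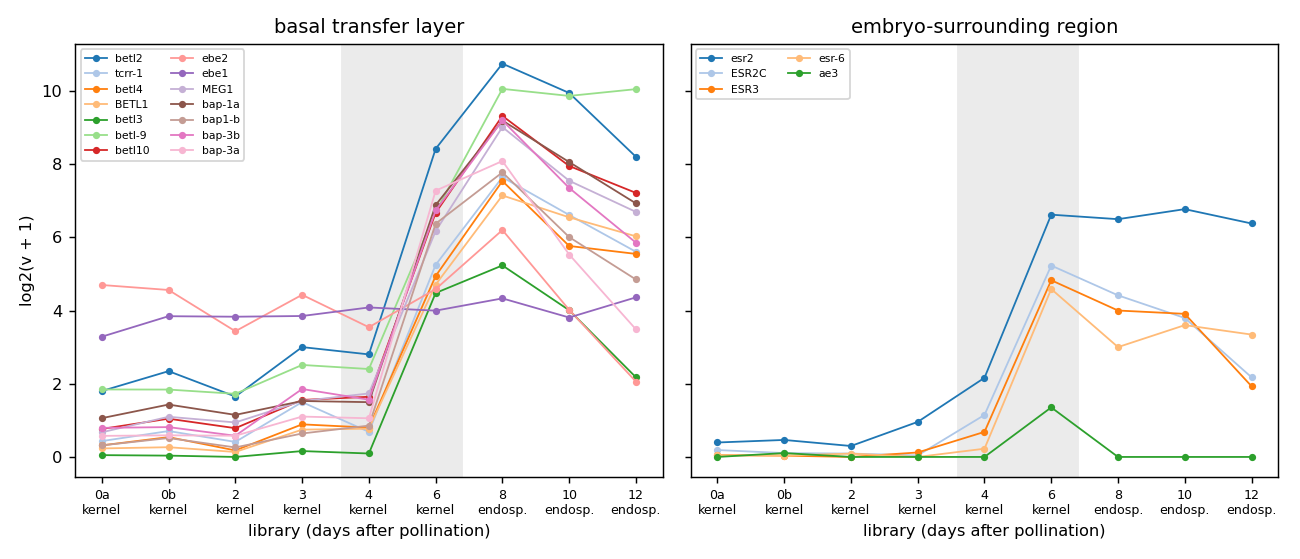
Level of each member of the basal transfer layer list (left) and the embryo-surrounding region list (right) in the 9 libraries, as log2(v + 1) on the y axis against age and tissue on the x axis, with 1 library per point and the 4 and 6 DAP libraries shaded. Between them 12 of 14 transfer layer genes and 4 of 5 embryo-surrounding region genes were higher by the rule of size, and ebe1 and ebe2 are the lines already high at 0 DAP.

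Genes of the embryo-surrounding region, several of which encode small peptides of the CLE type, were higher at 6 DAP as well. The 5 members of the list were all detected, 4 were higher by the rule and none was lower, and the median log2 ratio was 4.14. The gene esr2 had v of 0.315 and 0.38 at 0 DAP, 0.23 at 2 DAP, 0.942 at 3 DAP, 3.47 at 4 DAP and 97.3 at 6 DAP, and 89.2, 108 and 82.2 at 8, 10 and 12 DAP. Its v in the whole kernel of 6 DAP was thus close to that in the dissected endosperm of later ages, which is an unlike tissue. At 6 DAP esr2 was 28.0-fold higher than at 4 DAP (23 to 34.4). ESR3, ESR2C and esr-6 had their highest v of the series at 6 DAP, at 27.4, 36.5 and 23, against 15, 20.3 and 7 in the endosperm of 8 DAP. Their folds over 4 DAP were 45.1 (28.4 to 76.3), 30.1 (21.6 to 43.0) and 137 (58.4 to 421), the last from 5 reads at 4 DAP. The remaining member, ae3, had no read at 4 DAP and 85 reads at 6 DAP (v = 1.56), at least 15.4-fold higher when set against 3 reads at 4 DAP, and stayed under the minimum level. It had no read at 8, 10 or 12 DAP.

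No gene of the aleurone list passed the rule. Its 6 members were all detected, none was called in either direction, and the median log2 ratio was -0.06. The gene dek1, which encodes a calpain protease needed for aleurone fate, had v of 90.3 and 94.8, and that of the receptor kinase gene cr4 was 33.8 and 25.9. Both are also active outside the aleurone and had v of 159 and 35.4 in replicate a of 0 DAP. Nkd1 and Nkd2, which encode zinc finger proteins that restrict the aleurone to 1 layer, were low at both ages. Nkd1 had v of 0.945 and 3.84, a ratio of 4.07 (2.73 to 6.27) under the minimum level, and Nkd2 had 0.776 and 1.35. They stood at 44.2 and 29.6 at 8 DAP.

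Several regulators of the endosperm lay low at both ages. Of the 7 genes on the list of endosperm transcription factors 6 were detected, none passed the rule, and all 6 lay above their 4 DAP level, with a median log2 ratio of 0.90. Of all 36405 detected models 20283 lay above theirs. Opaque11, a bHLH factor of the endosperm, had 6 reads at 4 DAP and 293 at 6 DAP. Its v was 0.202 and 5.36, 26.5-fold (12.0 to 72.7), and 30.9 at 8 DAP. The bZIP factor o2, an activator of zein genes, was under v = 1 at both ages with 0.54 and 0.0915, and was picked after its values were seen. Of 7 Polycomb and imprinted genes 2 were higher and none was lower. Over the 1751 detected models with a usable symbol 44 were higher and 24 lower. MEG1, which is also on the transfer layer list, was 1 of the 2. The other was fie1, an imprinted Polycomb gene of the endosperm. It had v of 1.92 at 4 DAP, 12.3 at 6 DAP and 116 at 8 DAP, 6.39-fold higher (4.87 to 8.53). Its log2 ratio of 2.19 lay within the technical limit of 3.15. Its paralogue fie2, which is not limited to the endosperm, had 10.1 and 7.76, and the methyltransferase genes mez1, mez2 and mez3 had ratios of 1.31, 1.2 and 1.62.

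The gene fl3, a regulator of the starchy endosperm, was named after its values were seen. Its v was 3.81, 3.75, 3.32, 7.03 and 6.98 from 0 to 4 DAP, 111 at 6 DAP and 1327 at 8 DAP, 15.9-fold higher at 6 than at 4 DAP (13.9 to 18.4). Of the 4 largest log2 ratios of all, 3 belonged to models without a usable symbol and the third in rank to bap-3a. GRMZM2G027472 moved from 0.54 to 172, GRMZM2G121137 from 0.877 to 158 and GRMZM2G175896 from 0.202 to 79.1. All 3 had v of at most 1.27 in every library from 0 to 4 DAP and stood at 191, 180.3 and 312 at 8 DAP.

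Sugar supply genes differed gene by gene, with 1 of 11 detected members higher, beside 44 of the 1751 detected models with a usable symbol. The cell wall invertase gene mn1, which splits incoming sucrose at the transfer cells, was the only gene of 11 detected members of its list to pass the rule, with a list median of 0.30, though its log2 ratio of 2.47 lay within the technical limit of 2.99 at its level. Its v was 3.57 and 1.77 at 0 DAP, 20.3, 20.1 and 13.3 at 2, 3 and 4 DAP, 77.9 at 6 DAP and 145 at 8 DAP, 5.86-fold higher at 6 than at 4 DAP (5.29 to 6.52). A gain between 0 and 2 DAP had thus preceded the gain between 4 and 6 DAP. Another invertase gene, incw1, went from 1.42 to 9.62 and just missed the minimum level. The sucrose phosphate synthase gene sps1 went from 25.3 to 103, 4.08-fold (3.78 to 4.4), and missed the ratio on v + 1. The sucrose synthase gene sh1 had 112 and 137, and was at 1394 at 8 DAP. Another sucrose synthase gene, sus2, was already low by 2 DAP, with 184 and 172 at 0 DAP, 9.81 at 2 DAP, and 2.43 and 0.842 at 4 and 6 DAP.

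Starch synthesis genes were not raised as a group between 4 and 6 DAP. Of 17 members, all detected, 1 was higher and 1 was lower, with a median log2 ratio of -0.10. Over the 1751 detected models with a usable symbol 44 were higher and 24 lower. On v + 1, 4 members were at least 2-fold lower and 2 at least 2-fold higher, beside 6.83% and 10.3% of all detected models. The 4 were sh2, bt1, GBSSIIa (v of 18.5 and 5.89, 3.13-fold lower, 2.72 to 3.61) and GLG1 (61.1 and 29.7, 2.06-fold lower). The 2 were wx1 and AGPLS3 (3.58 and 9.07). The higher gene was wx1, which encodes the granule-bound starch synthase that makes amylose. It had v of 3.41 at 4 DAP and 18.6 at 6 DAP, 5.45-fold (4.44 to 6.75; log2 ratio 2.15, technical limit 2.99), and 89.7, 726 and 1268 at 8, 10 and 12 DAP. The lower gene was sh2, the large subunit of ADP-glucose pyrophosphorylase, with v of 20.2 and 20.7 at 0 DAP, 18.3 at 2 DAP, 23.1 at 3 DAP, 24.7 at 4 DAP and 2.03 at 6 DAP, 12.2-fold lower (9.96 to 15). It then stood at 1781 at 8 DAP and 16648 at 12 DAP. In v, which rests on the TMM factors, the sh2 level at 4 DAP was 0.149% of its 12 DAP level. This lay within the range of 0.0135% to 0.155% that the zeins had in that library. When the median zein share was subtracted, sh2 still had v of 13.3 at 4 DAP and passed the rule, as did 3 zeins. A share above that median leaves a remainder by construction, so the subtraction cannot tell where the sh2 reads at 4 DAP came from. Their origin was not tested. The adenylate translocator gene bt1 had v of 1.69, 0.0915 and 121 at 4, 6 and 8 DAP, in the same order but too low for the rule. The small subunit gene bt2 had 15.6 and 10.0, and starch synthase genes du1 and ss1 had ratios of 1.06 (1.01 to 1.11) and 1.13 (1.06 to 1.2).

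Zein genes made up most of the named models that were lower. Of the 29 on the list 27 were detected, 19 were lower at 6 DAP by the rule and none was higher, with a median log2 ratio of -4.63. The 27 zeins that reached a v of 1000 by 12 DAP stood at a median of 0.067%, 0.0605%, 0.0653%, 0.0608% and 0.0686% of their 12 DAP level in the libraries of 0 DAP a and b, 2, 3 and 4 DAP. At 6 DAP that median was 0%, and at 8 and 10 DAP it was 0.416% and 21.3%. The share was thus as large in unpollinated kernels, which have no endosperm, as at 4 DAP. FL2, which encodes an alpha zein, had v of 58.9 and 52.1 at 0 DAP, 59.2 at 2 DAP, 52.5 at 3 DAP, 59.8 at 4 DAP, 0.0366 at 6 DAP and 374 at 8 DAP. On counts it was 1635-fold lower at 6 than at 4 DAP, with an interval of 452 to 13509.5 from 2 reads at 6 DAP. The gamma zein gene gz50 had 822 reads at 4 DAP and none at 6 DAP, at least 505-fold lower when set against 3 reads at 6 DAP. When the median share was subtracted from the 4 DAP counts, 194 lower models remained of the 223, among them 3 zeins, and 356 models were higher. The origin of these reads was not tested.

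**Figure D3:**
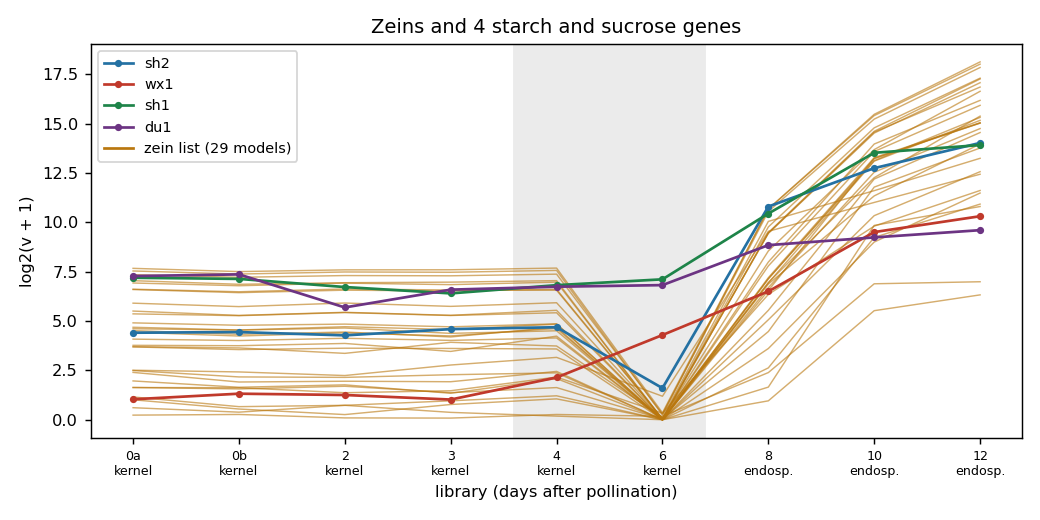
Level of the 29 models of the zein list (thin lines) and of sh2, wx1, sh1 and du1 (thick lines) in the 9 libraries, as log2(v + 1) on the y axis against age and tissue on the x axis, with the 4 and 6 DAP libraries shaded. The zein lines run level from 0 to 4 DAP, drop at 6 DAP, where 17 of the 29 models had no read, and rise from 8 DAP.

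The models of largest ratio without a usable symbol on the lower side behaved like the zeins. AF546188.1_FG005 had v of 198 in replicate a of 0 DAP, 205 at 4 DAP, 0.128 at 6 DAP and 222073 at 12 DAP. GRMZM2G059620 and GRMZM2G586611 both had 208 at 4 DAP and 0.0915 at 6 DAP. Their counts agree so closely in every library that the same reads may have been counted in both. Of the 223 lower models 40 reached v = 1000 at 12 DAP and 183 did not.

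Outside the zeins only 5 lower models could be named, namely HB85, sh2, glu1, glu2 and ERECTA. The homeobox gene HB85 was seen at 4 DAP alone: its v was 49.6 there, from 1470 reads, 0.0183 at 6 DAP from 1 read, and at most 1.28 in any other library. A level in 1 library alone has no support from a neighbouring age. The gene glu1 encodes a beta-glucosidase that acts on stored benzoxazinoid glucosides. It had v of 323 and 337 at 0 DAP, 1327 at 2 DAP, 1262 at 3 DAP, 3713 at 4 DAP, 571 at 6 DAP and 48.9, 22.1 and 26.4 at 8, 10 and 12 DAP. The level at 6 DAP lay above that at 0 DAP and below those from 2 to 4 DAP, 6.5-fold below 4 DAP (6.42 to 6.59). The related gene glu2 went from 201 at 4 DAP to 39.8 at 6 DAP, 5.03-fold lower (4.79 to 5.29), and had 64.8 at 3 DAP. ERECTA, named after the Arabidopsis receptor kinase and given here after its values were seen, had 417, 475, 301, 229 and 177 in the libraries from 0 to 4 DAP, 27.8 at 6 DAP and 20.1 at 8 DAP. Its level was lower at each later age, and the drop from 4 to 6 DAP was 6.36-fold (6.01 to 6.74).

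Cell wall genes included 3 of the higher named models and none of the lower. Of 28 detected members the median log2 ratio was 0.38. Over the 1751 detected models with a usable symbol it was 0.22, with 44 higher and 24 lower. BURP7 and BURP6, which encode proteins with a BURP domain, went from 4.35 to 149.7 (34.4-fold, 28.9 to 41.3) and from 0.439 to 13.9 (31.7-fold, 18.4 to 59.8). Both were higher still in the 8 DAP endosperm, at 2150.4 and 327. The beta-expansin gene expB7, of a family that loosens cell walls, went from 0.304 to 16.4 and was at 9.09 at 8 DAP. Another, expB5, had 7 reads at 4 DAP and 240 at 6 DAP, v of 0.236 and 4.39, and none at 8 DAP.

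Auxin genes were mixed. Of 42 detected members 2 were higher and none was lower, with a median of 0.34. Over the 1751 detected models with a usable symbol 44 were higher and 24 lower, with a median of 0.22. GH3, of the family that conjugates auxin to amino acids, went from 0.81 to 16.0, 19.8-fold (13.2 to 31.1), and was at 40.6 at 8 DAP. AUX3 had v of 3.08 and 3.11 at 0 DAP, 32.9 at 2 DAP, 26.4 at 3 DAP, 16.5 at 4 DAP, 91.7 at 6 DAP and 16.8 at 8 DAP. It was 5.57-fold higher at 6 than at 4 DAP (5.08 to 6.13), and no other library exceeded 32.9. Yucca3, an auxin synthesis gene, and PIN9, an auxin efflux carrier, stayed under the minimum level. Yucca3 went from 0.641 to 8.31, and PIN9 from 1 read to 234 reads (v of 0.0337 and 4.28). Both were under v = 1 at 8 DAP.

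Of 49 detected genes of the other hormones none passed the rule, with a median of 0.39. Among them cko2, a cytokinin oxidase gene, had 2 reads at 4 DAP and v of 2.87 at 6 DAP, and the cytokinin response regulator gene RR6 went from 5.87 to 21.8. Of 11 genes for peptides and their receptors 1 was higher, beside 44 of the 1751 detected models with a usable symbol. It was psk1, a precursor of the growth peptide phytosulfokine. It had v of 1.26 and 1.04 at 0 DAP, 17.9, 25.3 and 18.5 at 2, 3 and 4 DAP and 86.1 at 6 DAP, 4.65-fold over 4 DAP (4.25 to 5.09). Its relative PSK3 lay the other way, at 5.47 and 2.01, without passing.

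Some lists shifted by less than the rule asks for but with many members on the same side. Of 14 detected genes of glycolysis and fermentation none passed, 13 lay above their 4 DAP level, beside 20283 of all 36405 detected models, and 7 did so by 2-fold or more on v + 1, beside 10.3% of all. Of the 1751 detected models with a usable symbol 1110 lay above theirs, and 13.5% did so by 2-fold or more. The list's median log2 ratio was 1.06. The pyruvate decarboxylase gene pdc3, of the fermentation pathway, had v of 95.8 at 3 DAP, 103 at 4 DAP, 312 at 6 DAP and 96.2 at 8 DAP, 3.02-fold over 4 DAP (2.9 to 3.13). The alcohol dehydrogenase gene adh2 had 45.0, 76.9, 230.3 and 28.6 at the same ages. Both were thus highest of the series in the 6 DAP kernel. The glycolytic genes gpc4 and eno1 instead continued upward, from 139 through 551 to 4273 and from 228 through 591 to 2404 at 4, 6 and 8 DAP.

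Among 24 detected genes of jasmonate synthesis and lipoxygenases 1 was higher by the rule, 21 lay above their 4 DAP level and 11 did so by 2-fold or more, with a median of 0.96. By the rule 44 of the 1751 detected models with a usable symbol were higher. Over all detected models 20283 of 36405 lay above their 4 DAP level, and 10.3% did so by 2-fold or more. The lipoxygenase gene lox6 had v of 20.0 at 3 DAP, 7.86 at 4 DAP, 53.3 at 6 DAP and 0.209 at 8 DAP, 6.78-fold over 4 DAP (5.93 to 7.78). The allene oxide synthase gene aos1 had 79.1, 47.5, 135 and 13.6, 2.85-fold (2.69 to 3.02). For lox6 and aos1 the 3 DAP level lay between those of 4 and 6 DAP, and the dissected endosperm of 8 DAP was lowest of these. The 8 detected proteases and nucleases of cell death had a median of 0.81 and none passed, with the cysteine protease gene mir3 at 24.1 and 87.8 and the legumain gene see2b at 10.8 and 29.8. Of 15 detected heat shock genes none passed, 13 lay above their 4 DAP level, beside 20283 of all 36405, and the median was 0.68. HSP90-1 had 42.4 at 3 DAP, 11.2 at 4 DAP and 44.7 at 6 DAP, so that the 4 DAP library was low between its neighbours. The 18 genes of protein folding in the endoplasmic reticulum had a median of 0.52 with none past the rule, and the disulfide isomerase gene pdi had 249 and 566.

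Defence proteins and protease inhibitors went both ways, with 2 higher and 2 lower of 25 detected and a median of 0.24. The lower ones were glu1 and glu2. Of the 1751 detected models with a usable symbol 44 were higher and 24 lower, with a median of 0.22. The cystatin gene cc8, an inhibitor of cysteine proteases, had v of 1.77 at 3 DAP, 3.85 at 4 DAP, 63.2 at 6 DAP and 87.9 at 8 DAP, 16.4-fold over 4 DAP (13.6 to 20.0). The gene PR10, of a pathogenesis-related family, went from 1.82 to 16.0 and was at 2.61 at 8 DAP. In nitrogen metabolism 1 of 13 detected genes was higher. It was asn3, an asparagine synthetase gene, with 2.16 and 13.1 and at most 0.0523 in the dissected endosperm. Single higher members were also found among ribosomal proteins (rps12, 5.87 and 27.5, of 24), bZIP factors (bZIP84, 15.9 and 72.4, of 26) and AP2/ERF factors (EREB202, 4.15 and 26.1, of 28). EREB202 had 17.5 at 3 DAP, so its 4 DAP level was low between its neighbours.

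Genes of cell proliferation did not shift as a group. None of 15 genes of DNA replication, 20 of mitosis, 8 core histones and 25 of the cytoskeleton passed the rule, with medians of -0.03, 0.19, -0.20 and 0.30. Within them the replicative helicase gene MCM7 had v of 52.9 at 3 DAP, 56.3 at 4 DAP, 19.4 at 6 DAP and 113 at 8 DAP, 2.89-fold lower at 6 than at 4 DAP (2.68 to 3.13). The cell cycle kinase gene wee1 had 12.2, 11.2, 2.69 and 8.15, 4.16-fold lower (3.42 to 5.09), and the retinoblastoma-related gene rbr3 had 41.3, 31.5, 11.9 and 54.3. All 3 thus had a lower v at 6 DAP than at the ages on either side. The D-type cyclin gene cycD1 went the other way, from 5.63 to 18.2.

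**Figure D4:**
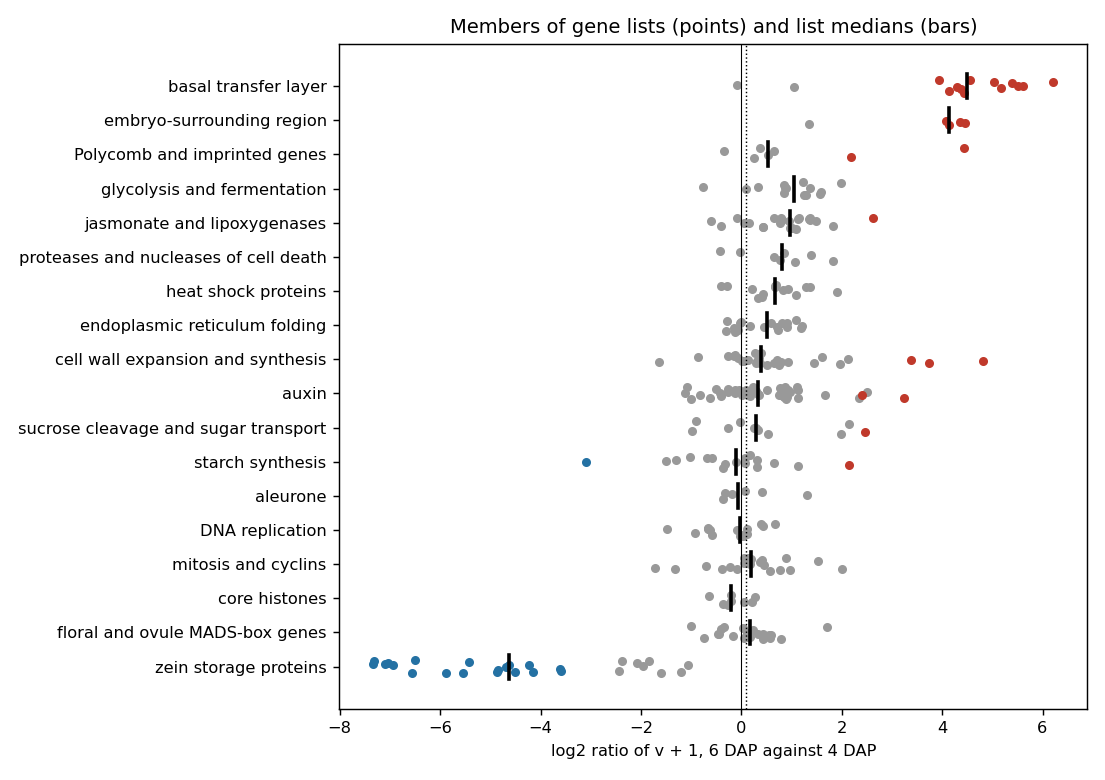
Log2 ratio of v + 1 at 6 against 4 DAP for the detected members of 18 gene lists, with 1 point per gene model, red if higher and blue if lower by the rule of size, and the list median as a bar. The dotted line marks 0.10, the median of all detected models, and the transfer layer, embryo-surrounding region and zein lists have medians of 4.50, 4.14 and -4.63.

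Markers of the other kernel tissues were also followed, since whole kernels hold them all. Of 23 detected floral and ovule MADS-box genes, listed as markers of maternal tissue, none passed the rule and the median was 0.17. Their summed v was 2783 at 4 DAP and 3364 at 6 DAP, against 529.6, 411 and 264 in the dissected endosperm of 8, 10 and 12 DAP. The sum was thus lower in the endosperm but not absent from it, and MADS11 was highest there, with 15.8 at 10 DAP. The largest ratio was that of MADS4 with 98.2 and 324. Of 5 detected genes of the embryo and oil bodies none passed, and the list's summed v was 133 at 4 DAP and 261 at 6 DAP. This sum does not follow the embryo, since it was 161 and 157 in the unpollinated kernels of 0 DAP and 472 to 761 in the dissected endosperm. The embryo patterning gene wox2A had 1 read at 4 DAP and 77 reads at 6 DAP (v of 0.0337 and 1.41), while most of the sum came from RAB15 with 124 and 254, and with 148 and 145 at 0 DAP. Photosynthesis genes summed to 147 and 178, of which pep made up 102 and 117, and to 128, 155 and 82.2 in the dissected endosperm of 8, 10 and 12 DAP, so this sum marks no maternal tissue here. The summed v of the embryo-surrounding region list was 5.47 at 4 DAP and 186 at 6 DAP, so that the summed level of the MADS-box genes changed by a far smaller ratio than it or the transfer layer sum. The part of a changed share of tissues in these differences was not tested.

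The called models differed in how they continued outside the compared ages. The 354 higher models had a median v of 1.03 and 1.16 at 0 DAP, 1.22 at 2 DAP, 3.08 at 3 DAP, 1.94 at 4 DAP and 26.3 at 6 DAP. At 8, 10 and 12 DAP their medians were 10.2, 9.09 and 6.24. In the 8 DAP endosperm 178 of them had v of at least 10 and 84 lay under 1. The higher models thus held both genes that stay on in the dissected endosperm, such as betl2 and BURP7, and genes near absent from it, such as lox6 and asn3. The 223 lower models had median levels of 18.2 and 20.7 at 0 DAP, 16.9 at 2 DAP, 15.5 at 3 DAP, 25.3 at 4 DAP and 1.76 at 6 DAP. At 8 DAP their median was 10.9, with 114 at v of at least 10 and 40 under 1. Of the higher models 71 lay 4-fold or more above all 8 other libraries at 6 DAP, and of the lower ones 49 lay 4-fold or more below all 8, with no minimum asked of the others. The 71 are the models already given for the 6 DAP library. The 4 DAP library is among the 8, so both counts draw on values that the rule used. Without the models that were apart at 6 DAP alone 283 higher and 174 lower models remained, and with the 3 DAP library in place of the 4 DAP library, a comparison that shares the 6 DAP library, the counts were 510 and 229. Of the 354 higher models 241 were called with the 3 DAP library too, and of the 223 lower ones 104 were, so that most of the lower models did not pass against 3 DAP. Both of these settings were chosen after seeing the data.

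**Figure D5:**
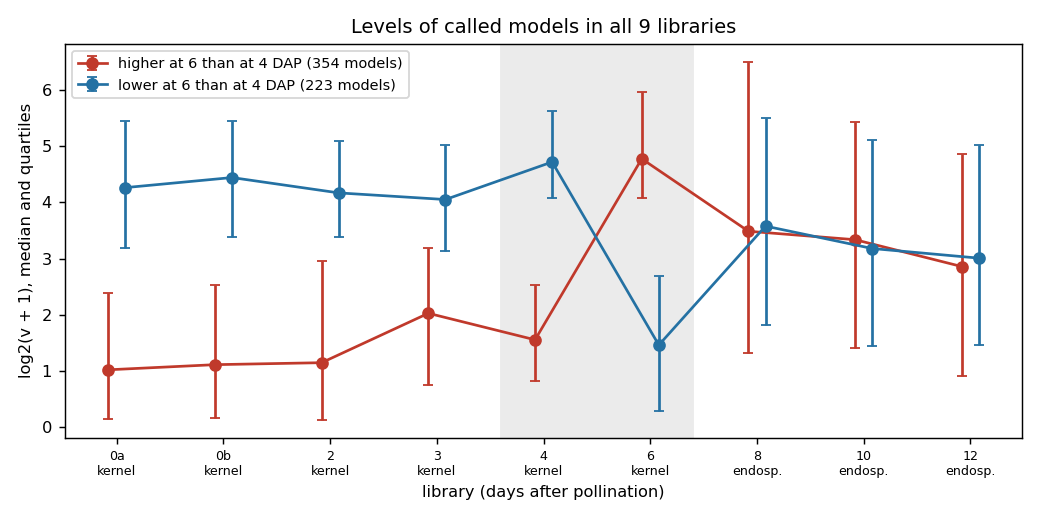
Median level of the 354 higher and 223 lower models in each of the 9 libraries, as log2(v + 1) on the y axis against age and tissue on the x axis, with bars from the lower to the upper quartile over models. The 4 and 6 DAP libraries (shaded) are those the models were chosen on, and the lower models return at 8 DAP to a median v of 10.9 from 1.76 at 6 DAP.

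Several other named models passed the rule and were picked out after their values were seen. The alkaline galactosidase genes AGA1 and AGA3b, of enzymes that release galactose from raffinose sugars, went from 83.3 to 347 and from 9.92 to 80.0, and were at 9.62 and 2.98 in the 8 DAP endosperm. The thiamine synthesis gene thi1-2 had 35.9 at 3 DAP, 34.6 at 4 DAP, 188 at 6 DAP and 33.9 at 8 DAP, 5.42-fold over 4 DAP (5.08 to 5.79). For these 3 genes the 6 DAP kernel was the highest library of the series. The gene ufo1 instead belonged to those that continued, with 0.371, 11.5, 67.3 and 80.2 at 4, 6, 8 and 12 DAP.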

How the data were processed

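The values are raw read counts that the authors deposited for 110028 gene models, 1 file a library. Per the labels' protocols, RNA went through 2 rounds of poly(A) selection and was sequenced on a SOLiD 4. The submitters' processing notes name bedtools, with no version or role. For the aligner, genome build, annotation and use of strand the entry is: not given in the sources used here. Hence overlapping and antisense models may share reads. Replicate a and b of 0 DAP are technical replicates, and every other age is 1 sample.

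Counts were scaled with edgeR 4.0.16 (TMM over all 9 libraries, R 4.3.3), and v is the scaled CPM. Ratios carry exact conditional binomial 95% intervals, which cover counting error only since reads are not independent molecules. Where a library had no read, the fold is a bound against 3 reads in it. No p-value was computed. Simulated counts with known folds were used to check that the rule runs as stated. Their spread was taken from the technical pair, the same for all models, so they say nothing on biological variation. Tables and figures were made with matplotlib 3.10.9, pandas 2.3.3, scipy 1.17.1 and numpy 2.4.6 under Python 3.11.15.

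RefSeq's gene table (Zm-B73-REFERENCE-NAM-5.0) was used for names only: 18787 identifiers matched, 17155 in a record of their own, and 2240 models had a symbol that no other model carried. These were sorted into 40 lists by symbol pattern. Symbols that pointed to several models were not used. Models whose counts agree within 2% in every library formed 443 groups of 1028 models, with 21 higher and 29 lower models among them.

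Genes were named by rule: the 15 higher and 15 lower named models of largest ratio, 3 each without a name, from each list the 4 of largest absolute ratio, and all members of 6 lists (transfer layer, embryo-surrounding region, aleurone, starch, sucrose, Polycomb and imprinted genes). Others are said to have been picked after their values were seen. The comparison, the lists and the alternatives were chosen with earlier results of these data known. Alternatives were library totals, those totals less the 100 most counted models, size factors of DESeq2 1.42.0, TMM on the compared libraries alone, other minimum levels, ratios and pseudocounts, counts thinned to equal totals, subtraction of late endosperm reads, 1 model per group of like counts, and the technical pair as a yardstick.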

Additional observations from a re-analysis of the deposited data

How the results depend on the processing

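No paired analysis was possible because each age is 1 sample and the compared ages share only 1 replicate number. The main counts were 354 higher and 223 lower models. By library totals these were 411 and 345, by totals without the 100 most counted models of each library 455 and 367, and with TMM on the 4 and 6 DAP libraries alone 433 and 326. These scalings change both the levels set against the minimum and every ratio, and the cause of the higher counts was not tested. With no minimum level 614 were higher and 370 lower, and with a minimum of 50 these were 105 and 52. A ratio of 2 gave 1444 and 954, and a ratio of 8 gave 178 and 91. Past the technical limit there were 184 and 96. Between the technical replicates 142 models differed by library totals. The median over all detected models moved from 0.10 to -0.03 by library totals, 0.02 with DESeq2 size factors, 0.02 with TMM on the 4 and 6 DAP libraries alone and -0.02 without the 100 most counted models, so ratios near 0 have no sure sign.

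The median of the zein list was -5.19 by library totals, -5.17 with TMM of the 4 and 6 DAP libraries, -5.32 without the 100 most counted models and -7.89 with a pseudocount of 0.1. It was 0 after subtraction of the median zein share of the 12 DAP counts. After that subtraction FL2 and z1A2_2 stood at 0.052, on the other side of 0, since their 4 DAP counts were taken to 0 by construction. A pseudocount of 0.1 gave 5.59 for the transfer layer and 4.80 for the embryo-surrounding region. Thinning the 6 DAP reads to the 4 DAP total gave 351 and 225 models, DESeq2 size factors 312 and 238, 1 model per group of like counts 342 and 207, and leaving out models of v 1000 or more at 12 DAP, chosen after seeing the data, 350 and 183. The 40 list medians were recomputed under 6 of the alternatives (4 scalings, a pseudocount of 0.1 and the subtraction). Of these 240 values 233 stayed within 1 technical SD (0.37, models of v 10 to 100) of the main value and 7 moved. Of 1254 such values for single named genes 1097 stayed, 155 moved and 2 changed sign. No replicate could be left out, since each age has 1 sample.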

Other observations

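Of the 46 homeobox factors matched, HB85 was lower, none was higher, and the median log2 ratio over the 36 detected was 0.24. No member of the other lists of transcription factors named here passed the rule of size. Their median log2 ratios were 0.39 over 28 MYB factors, 0.30 over 8 NAC factors, 0.27 over 11 WRKY factors, 0.17 over 11 SBP factors and 0.41 over 5 TCP factors. None of the 15 detected aquaporins, 7 flavonoid pathway genes and 4 genes of lipid transfer and cuticle passed either, with medians of 0.11, -0.17 and 0.44. Over 12 genes of wide use as controls none passed and the median was 0.06. The median was 0.10 over all detected models and 0.22 over those with a usable symbol.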
